A study of Mus musculus with 6 samples.

Results

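Fatty acid beta-oxidation shortens fatty acids by pairs of carbons, and the peroxisome proliferator-activated receptors (PPARs) switch many of its genes on. The set described here holds 33 mouse genes: enzymes and carriers of the pathway in mitochondria and peroxisomes, the PPAR genes Ppara and Ppard, the coactivators Ppargc1a and Ppargc1b, and the target genes Pdk4 and Ucp2. The genes were chosen by name, and each was read from the probe set that names only that gene and has the highest mean over the 6 arrays. Such a probe set was found for 31 of the 33 genes, among 18193 genes in all. The probe set that names Cpt1b also names other genes, and Ucp2 was not analysed here.

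The arrays read total RNA of embryonic mouse lungs, taken at E18.5 near the end of gestation, on Affymetrix Mouse430_2 expression arrays. In the study 3 arrays labelled wild type (WT 1 to WT 3) stand against 3 labelled GATA6 KO (KO 1 to KO 3), to ask what the transcription factor GATA6 does as the lung develops and regenerates. The labels call the KO tissue GATA6 null. The allele, any driver of the deletion, the cells that lost the gene, the strain and the number of embryos behind an array are not given in the sources used here. Each array was taken as an independent sample, so p-values measure only the spread between these arrays, which may be technical. In lung tissue, fewer cells of a type and less RNA per cell cannot be told apart.

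As background, long fatty acids enter mitochondria bound to carnitine, are oxidised by acyl-CoA dehydrogenases that hand electrons to electron transfer flavoprotein, and are cut by the trifunctional protein or by single enzymes for shorter chains. Peroxisomes use their own oxidases, hydratases and thiolases for very long and branched chains. PPARs bind DNA with retinoid X receptors, and the PGC-1 coactivators raise their output and the number of mitochondria. Around birth many organs turn from glucose towards fat as fuel, and in the lung alveolar type II cells also build surfactant lipid from fatty acids.

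The targeted gene did not read lower in the KO arrays. The brightest probe set of Gata6 read 11.12, 10.26 and 10.42 in WT 1 to 3 and 11.58, 11.39 and 11.19 in KO 1 to 3, on the scale of log2(intensity + 16) that is used for every level below. All 3 KO arrays lay above all 3 WT arrays, with a difference of 0.79 (SE 0.24; limma adjusted p = 0.964). Where this probe set lies relative to a deleted part is not known here, so it checks neither the deletion nor the labels, and every direction below is one between arrays labelled KO and WT. The arrays also stood apart in another way that crosses the labels. The composition index, an array's median log2 level of bright probe sets that name no gene minus that of bright probe sets that name 1 gene, was -0.23 in WT 1, -0.46 in KO 2 and -0.03 in KO 3, against -1.02, -0.94 and -0.96 in WT 2, WT 3 and KO 1. Fluidics station 1 processed WT 1 and WT 2, and station 2 the other 4 arrays. All WT arrays were scanned before the KO arrays, so the order of scanning cannot be told apart from the label. Of 7 markers of lung epithelium 6 were bright, meaning above the median gene in at least 1 group, and Nkx2-1 was not. Markers of tissues rich in beta-oxidation that can be carried along with lung were read too. None of 7 measured markers of fat, Ucp1 and Adipoq among them, and none of 10 of skeletal muscle was bright. The summed intensity of the fat markers was 33.3 to 34.2 in WT and 33.8 to 34.8 in KO, and that of the skeletal muscle markers 111 to 120 in WT and 107 to 153 in KO. Of 10 cardiac muscle markers 8 were bright, with a summed intensity of 4905 to 7319 in WT and 4400 to 8998 in KO. Of 9 measured liver markers 1 was bright, Alb, which read from 4.84 in WT 1 to 10.31 in KO 1. The liver sum was 66.7 to 590 in WT and 189 to 1407 in KO, and the part of these markers in the results below was not tested.

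The promoters of the enzymes that separated the labels best are shown first, because those genes are described in most detail below. Sequences are the 250 bases before the gene's start, 5′ to 3′ on the gene's strand, from RefSeq on GRCm38.p6, whose promoter table held 26 of the 33 genes. The Hadhb window is chr5:30155003-30155252 on the + strand. Hadha starts 273 bases away and runs in the opposite direction, so that all 250 bases lie between the starts of both genes, which encode the subunits of one enzyme. Capitals mark the 228 bases that also fall within the 250 bases before Hadha.
Hadhb: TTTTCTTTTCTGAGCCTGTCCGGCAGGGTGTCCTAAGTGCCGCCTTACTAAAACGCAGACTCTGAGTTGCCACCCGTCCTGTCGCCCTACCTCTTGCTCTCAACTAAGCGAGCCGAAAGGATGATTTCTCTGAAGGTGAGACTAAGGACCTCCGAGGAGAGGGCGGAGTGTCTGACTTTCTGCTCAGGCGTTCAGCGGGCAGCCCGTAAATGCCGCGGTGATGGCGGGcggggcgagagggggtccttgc
In the Acadm window, chr3:153944644-153944893 on the - strand, capitals mark the single match to AGGTCA, the half-site of nuclear receptors such as PPARs, here on the opposite strand.
Acadm: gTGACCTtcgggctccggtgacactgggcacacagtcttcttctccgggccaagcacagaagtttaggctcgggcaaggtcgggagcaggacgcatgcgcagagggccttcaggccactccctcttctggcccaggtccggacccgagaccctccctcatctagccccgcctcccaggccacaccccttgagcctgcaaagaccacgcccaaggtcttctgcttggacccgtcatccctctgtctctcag
In the Eci2 window, chr13:34994145-34994394 on the - strand, capitals mark the single match to a GATA hexamer, here on the opposite strand.
Eci2: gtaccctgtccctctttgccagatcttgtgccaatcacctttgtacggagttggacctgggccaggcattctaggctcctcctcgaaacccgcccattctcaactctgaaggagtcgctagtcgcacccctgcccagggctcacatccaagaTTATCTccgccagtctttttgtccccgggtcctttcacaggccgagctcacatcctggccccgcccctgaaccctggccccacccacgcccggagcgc
Both strands were searched. The direct repeat that PPARs bind, AGGTCA followed after 1 base of any kind by AGGTCA, was in 0 of the 27 windows of these 26 genes and in 0.0335% of 32851 windows of all genes. The single half-site AGGTCA, which the repeat contains, was in 4 of the 27 windows, those of Acadm, Acadvl, Cpt1a and Echs1, and in 14% of all windows. The longer site TCAAGGTCA of the estrogen-related receptors, which also contains AGGTCA, was in 0 of the 27 and in 0.387% of all. A GATA hexamer, which is AGATAA or AGATAG or TGATAA or TGATAG, was in 4 of the 27, those of Acadvl, Decr2, Eci2 and Pdk4, and in 26.5% of all. These matches are letters in a short window, not sites of binding.

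No gene of the set was called different between the labels, which does not show that the levels were equal. In limma 0 of the 31 measured genes passed an adjusted p of 0.05, where 0.00550% of all genes (1 of 18193, none of them higher) did. The adjusted p-values of the 31 ran from 0.964 to 0.999. At an unadjusted p under 0.05 stood 2 of the 31, Acadm and Hadhb, both higher in KO, against 4.58% of all genes. Differences lay between -0.48 (Ppard) and 0.44 (Acadm) log2, with 14 genes above and 17 below 0 and a median of -0.02, against a median of 0.003 over all genes. The median size of a difference, without its sign, was 0.13 in the set and 0.08 over all genes, many of which are dim, or 0.15 over bright genes. For 30 of the 31 genes the 95% interval of the difference lay within 1 log2 to either side of 0, and Ppard was the exception (-1.19 to 0.22). These intervals are not adjusted for the 18193 genes tested, so they do not give the size of difference that would be called. Eci1, a further beta-oxidation gene described below, differed by 1.82 (95% interval 1.21 to 2.42) and did not pass. With 3 arrays per group, differences of the sizes seen in the set could go uncalled.

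**Figure D1:**
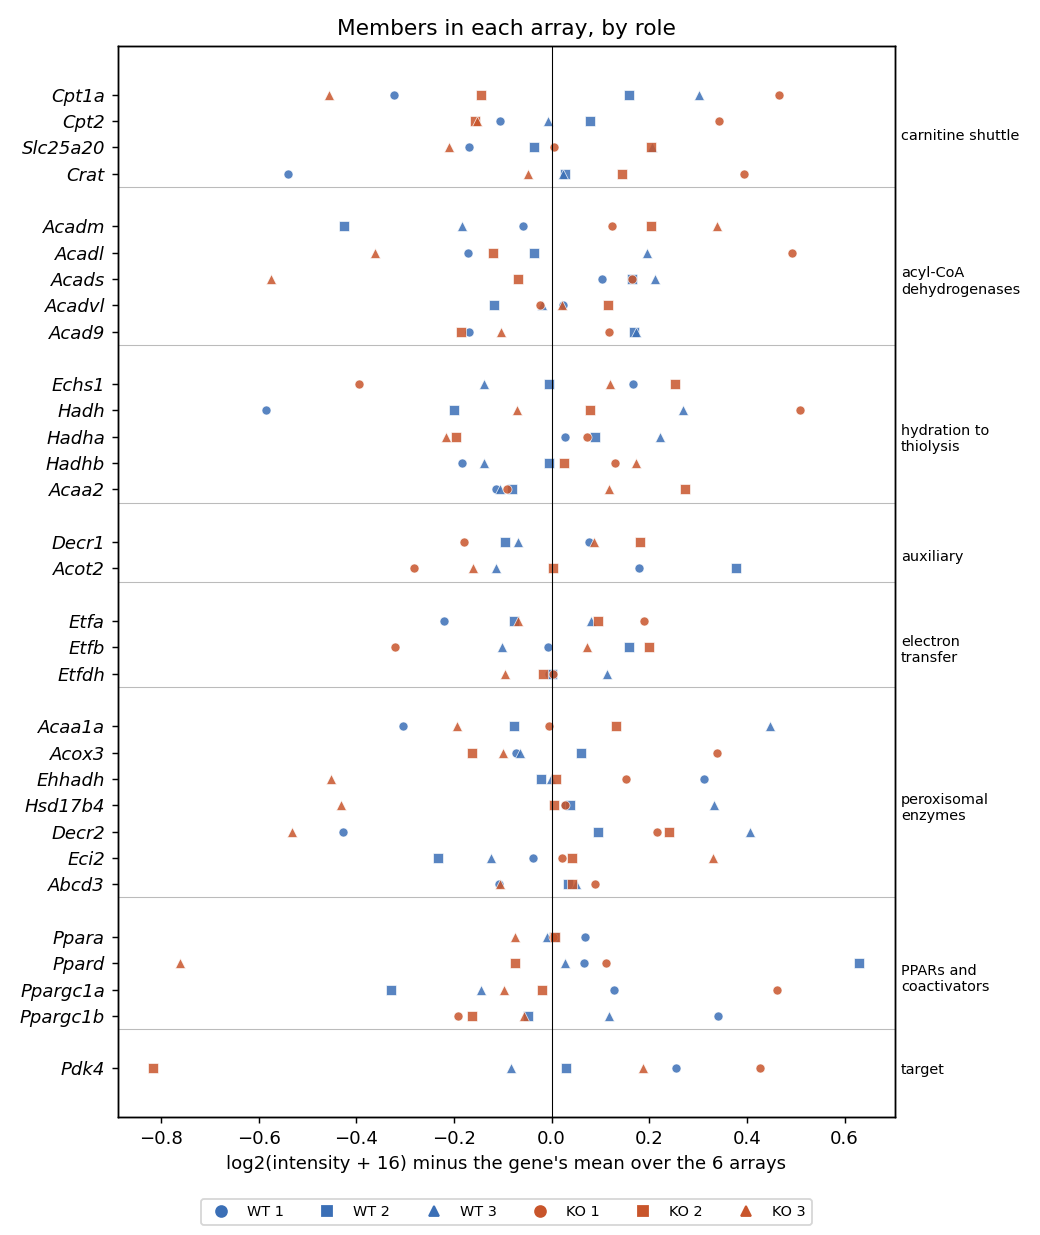
Level of each measured gene in each array, as log2(intensity + 16) minus the gene's mean over the 6 arrays (horizontal axis), ordered by role; blue points are the 3 WT arrays, orange points the 3 KO arrays and the shape is the array's number. The 3 KO arrays lie all to the right of the 3 WT arrays for Acadm, Hadhb and Eci2 and all to the left for Hsd17b4 and Ppargc1b, and overlap them for the other 26 genes.

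The KO arrays lay all above the WT arrays for 3 of the 31 genes (Acadm, Hadhb and Eci2) and all below for 2 (Hsd17b4 and Ppargc1b), against 5.89% and 3.81% of all genes. That is 5 of 31, where 9.70% of all genes and 11.6% of bright genes were separated in this way.

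The carnitine shuttle brings long-chain fatty acids into mitochondria. Cpt1a, the outer membrane enzyme that sets the pace of entry, read 8.56, 9.04 and 9.18 in WT and 9.35, 8.74 and 8.43 in KO. The KO arrays thus spanned the WT arrays on both sides, and the difference was -0.09 (SE 0.29). Slc25a20, the carrier through the inner membrane and the brightest gene of the shuttle, read 9.51, 9.64 and 9.88 in WT and 9.68, 9.88 and 9.46 in KO, so that the means were equal to within 0.01 (-0.001, SE 0.15). Cpt2, which returns the fatty acid to coenzyme A inside, differed by 0.02 (SE 0.16). Crat, which moves short acyl groups between carnitine and coenzyme A in both organelles, differed by 0.33 (SE 0.21). WT 1 was its lowest array at 8.18, and the other 5 lay between 8.67 and 9.11.

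The acyl-CoA dehydrogenases take the first oxidation step, each for its own chain length. Acadm, the medium-chain enzyme whose loss is a common inborn error of fat metabolism, read 11.09, 10.72 and 10.96 in WT 1 to 3 and 11.27, 11.35 and 11.49 in KO 1 to 3. Every KO array lay above every WT array, with means of 10.93 ± 0.19 and 11.37 ± 0.11 (SD, n = 3 each). The difference was 0.44 (SE 0.12), or 1.36-fold higher in KO, and was not called among the 18193 genes (limma adjusted p = 0.964). It was 0.41 (SE 0.17) within station 2, 0.43 (SE 0.16) for KO 1 against WT 2 and WT 3, and 0.33 (SE 0.18) for KO 2 and KO 3 against WT 1. Acadl, the long-chain enzyme and the brightest of these dehydrogenases, read 11.03, 11.17 and 11.40 in WT and 11.70, 11.08 and 10.84 in KO. Its highest and its lowest array were both KO, and the difference was 0.01 (SE 0.24). Acads, for short chains, differed by -0.32 (SE 0.23), with KO 3 lowest at 7.11 and the other arrays between 7.62 and 7.90. Acadvl, for very long chains on the inner membrane, differed by 0.08 (SE 0.09), and Acad9, which also helps assemble respiratory complex I, by -0.11 (SE 0.17).

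The trifunctional protein carries out the remaining steps on long chains. Hadhb, its thiolase subunit, read 11.30, 11.48 and 11.35 in WT 1 to 3 and 11.62, 11.51 and 11.66 in KO 1 to 3. The KO arrays all lay above the WT arrays, by 0.03 between the nearest pair. WT averaged 11.38 ± 0.09 and KO 11.59 ± 0.08 (SD, n = 3 each), which differ by 0.22 (SE 0.09; limma adjusted p = 0.964). Its other probe sets differed by 0.15 (SE 0.08) and 0.16 (SE 0.39). Hadha, the hydratase and dehydrogenase subunit that shares the upstream sequence printed above, read 10.004, 10.07 and 10.20 in WT and 10.05, 9.78 and 9.76 in KO. It went the other way, by -0.23 (SE 0.12), with KO 1 inside the WT range. The level of Hadhb minus that of Hadha within an array was 1.297, 1.42 and 1.15 in WT and 1.57, 1.73 and 1.90 in KO. Every KO value was above every WT value, with a difference of 0.45. This pair was chosen after the values were seen, so the difference is a description with no test.

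Hadh, the dehydrogenase for shorter chains and the brightest gene of this step, read 12.60, 12.98 and 13.45 in WT and 13.69, 13.26 and 13.11 in KO. The groups overlapped widely, and the difference was 0.34 (SE 0.26). It turned to -0.10 (SE 0.29) within station 2, where WT 3, the highest WT array, is the only WT array. For KO 2 and KO 3 against WT 1, the lowest WT array, it was 0.59 (SE 0.18; limma adjusted p = 0.0246), a call that assumes the lone WT array to vary like the others. Acaa2, the thiolase of shorter chains, read 11.69, 11.73 and 11.70 in WT and 11.72, 12.08 and 11.93 in KO, a difference of 0.20 (SE 0.11) in which KO 1 stayed with the WT arrays. Echs1, the hydratase, differed by -0.02 (SE 0.19), with KO 1 lowest at 11.12 and KO 2 highest at 11.77.

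The helper and electron transfer genes showed no separation of the labels. Decr1, the reductase for unsaturated chains and the brightest of the helpers, read 10.71, 10.54 and 10.57 in WT and 10.46, 10.82 and 10.73 in KO, a difference of 0.06 (SE 0.12). Its second bright probe set differed by -0.32 (SE 0.28), and Decr1 was the 1 of 9 genes with more than 1 bright probe set in which these disagreed in sign. With dim probe sets included, 9 of the 19 genes with more than 1 probe set disagreed in sign, Ppara and Ppard among them. Acot2, a mitochondrial thioesterase, differed by -0.29 (SE 0.16). Etfa, a subunit of electron transfer flavoprotein, read 11.72, 11.86 and 12.02 in WT and 12.13, 12.04 and 11.87 in KO. Its difference of 0.14 (SE 0.12) went to -0.01 (SE 0.18) within station 2. Etfb, the partner subunit, differed by -0.03 (SE 0.16), and Etfdh, which passes the electrons to ubiquinone, by -0.07 (SE 0.08).

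The peroxisomal genes Eci2 and Hsd17b4 separated the labels in opposite directions, 2 of 7 where 9.70% of all genes and 11.6% of bright genes separated. Eci2, an isomerase that readies unsaturated chains, read 10.77, 10.58 and 10.69 in WT 1 to 3 and 10.83, 10.85 and 11.14 in KO 1 to 3. All KO arrays were above all WT arrays, by 0.26 (SE 0.12; limma adjusted p = 0.964), and within station 2 by 0.25 (SE 0.20). Hsd17b4, the bifunctional enzyme that acts after the oxidases, read 10.68, 10.69 and 10.99 in WT and 10.68, 10.66 and 10.22 in KO. KO 1 lay below WT 1 by no more than 0.001, and KO 3 was lowest. The difference was -0.27 (SE 0.16; limma adjusted p = 0.964), -0.30 (SE 0.13) on its second probe set, -0.47 (SE 0.25) within station 2 and -0.12 (SE 0.13) without KO 3. Abcd3, which carries fatty acids through the peroxisomal membrane and is the brightest of the 7, read 11.82, 11.96 and 11.98 in WT and 12.02, 11.97 and 11.82 in KO, a difference of 0.02 (SE 0.09). Acaa1a, a thiolase, differed by -0.04 (SE 0.26), and its dim second probe set by 0.04 (SE 0.06). Acaa1a was bright only by its WT mean of 6.87945 against a cutoff of 6.87849, with a KO mean of 6.83469. The other 3 were dim, and Acox3, an oxidase of branched chains, read 4.36 to 4.87 over the 6 arrays against a floor of 4.17 set by the lowest intensity. Ehhadh, the other bifunctional enzyme, differed by -0.19 (SE 0.20) and Decr2, the peroxisomal reductase, by -0.05 (SE 0.33).

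**Figure D2:**
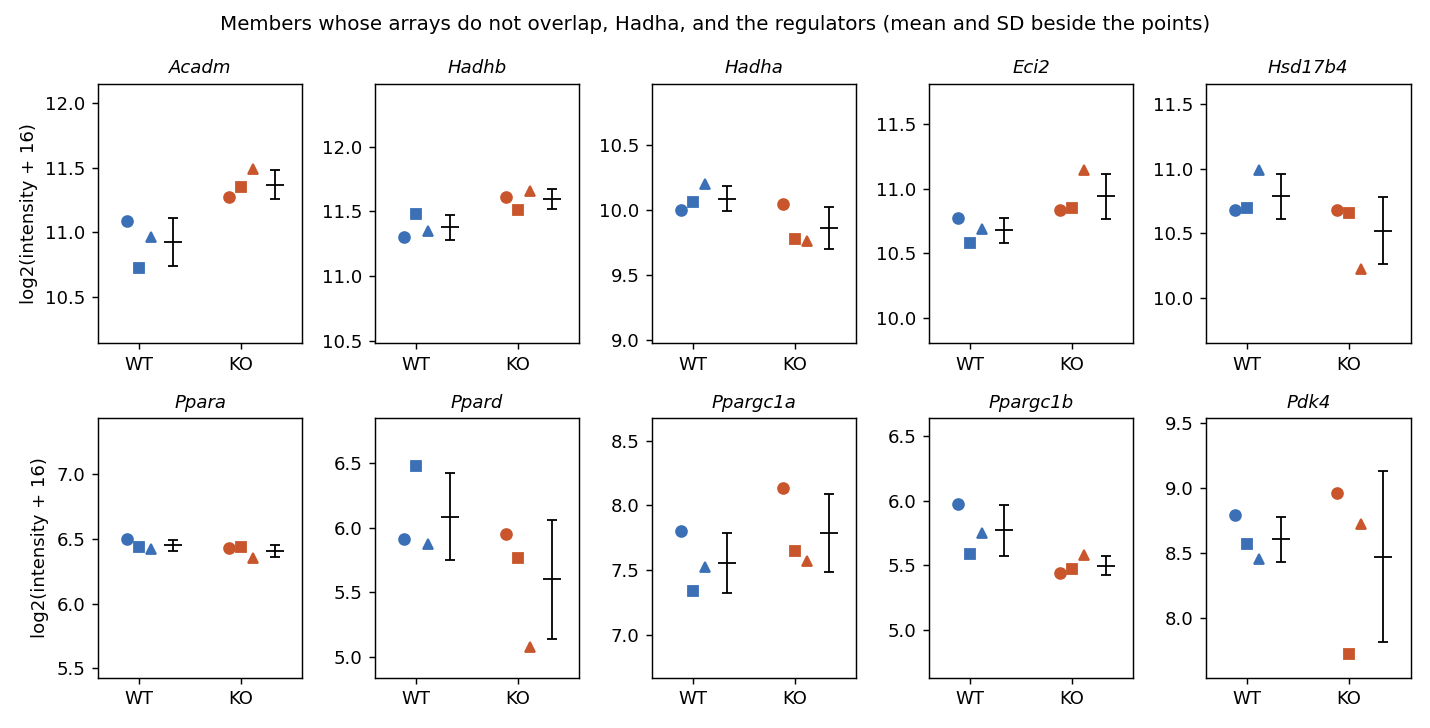
Level of 10 genes in each array as log2(intensity + 16) on axes that all span 2 log2; blue points are WT and orange points KO arrays, shapes give the array's number, and the bars beside them are the mean and SD of 3 arrays. The groups do not overlap for Acadm, Hadhb, Eci2, Hsd17b4 and Ppargc1b, and the 3 KO arrays spread most for Pdk4, between 7.72 and 8.96.

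Of the 4 PPARs and coactivators 3 read lower and 1 higher in KO, with a median difference of -0.16, and none was called. Ppara, the PPAR that drives fat burning in liver and heart, read 6.50, 6.43 and 6.42 in WT and 6.43, 6.44 and 6.35 in KO. All 6 arrays lay close together at a dim level, and the difference was -0.04 (SE 0.15; 95% interval -0.41 to 0.33). Ppard, the widely expressed PPAR, read 5.91, 6.47 and 5.87 in WT and 5.95, 5.77 and 5.08 in KO. WT 2 was highest and KO 3 lowest, the other 4 arrays lay within 0.19 of each other, and the difference was -0.48 (SE 0.29). It was -0.22 (SE 0.24) without KO 3. Ppargc1a, the coactivator induced by cold and fasting, read 7.80, 7.34 and 7.53 in WT and 8.13, 7.65 and 7.57 in KO. The arrays overlapped, with a difference of 0.23 (SE 0.23), and all 5 of its probe sets read higher in KO on average, by 0.17 to 0.38. The difference was 0.70 (SE 0.25) for KO 1 against WT 2 and WT 3 and -0.19 (SE 0.35) for KO 2 and KO 3 against WT 1. Ppargc1b, the related coactivator, read 5.97, 5.59 and 5.75 in WT and 5.44, 5.47 and 5.58 in KO. All KO arrays lay below all WT arrays at a dim level, the nearest pair by 0.008, with a difference of -0.27 (SE 0.13; limma adjusted p = 0.964). Pdk4, a PPAR target that turns pyruvate away from oxidation, read 8.79, 8.57 and 8.45 in WT and 8.96, 7.72 and 8.73 in KO. KO 2 lay below every other array, and the other KO arrays lay within or above the WT range, so the difference of -0.13 (SE 0.34) is smaller than the spread among the KO arrays (SD 0.66).

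Mitochondrial and peroxisomal enzymes were set against each other as sets. The 19 measured mitochondrial genes had a median difference of 0.01, with 10 higher and 9 lower. The 7 peroxisomal genes had a median of -0.04, with 3 higher and 4 lower. The mean level of the mitochondrial genes, relative to its mean over the 6 arrays, was -0.11, 0.01 and 0.05 in WT 1 to 3 and 0.09, 0.05 and -0.08 in KO 1 to 3. That of the peroxisomal genes was -0.09, -0.01 and 0.15 in WT and 0.12, 0.04 and -0.21 in KO. Both sets were thus low in WT 1 and KO 3, an array of each label. The mitochondrial minus the peroxisomal mean was -0.03 ± 0.06 in WT and 0.03 ± 0.08 in KO (SD, n = 3 each), and the difference of 0.07 is about as large as these spreads. Without Crat and Eci2, which are found in both organelles, it was 0.10, and within station 2 it was 0.136. Without KO 3 the median of the mitochondrial genes was 0.104, and without WT 1 it was -0.024, so its sign depends on single arrays. The median of the peroxisomal genes ran from -0.122 without KO 2 to 0.073 without KO 3.

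**Figure D3:**
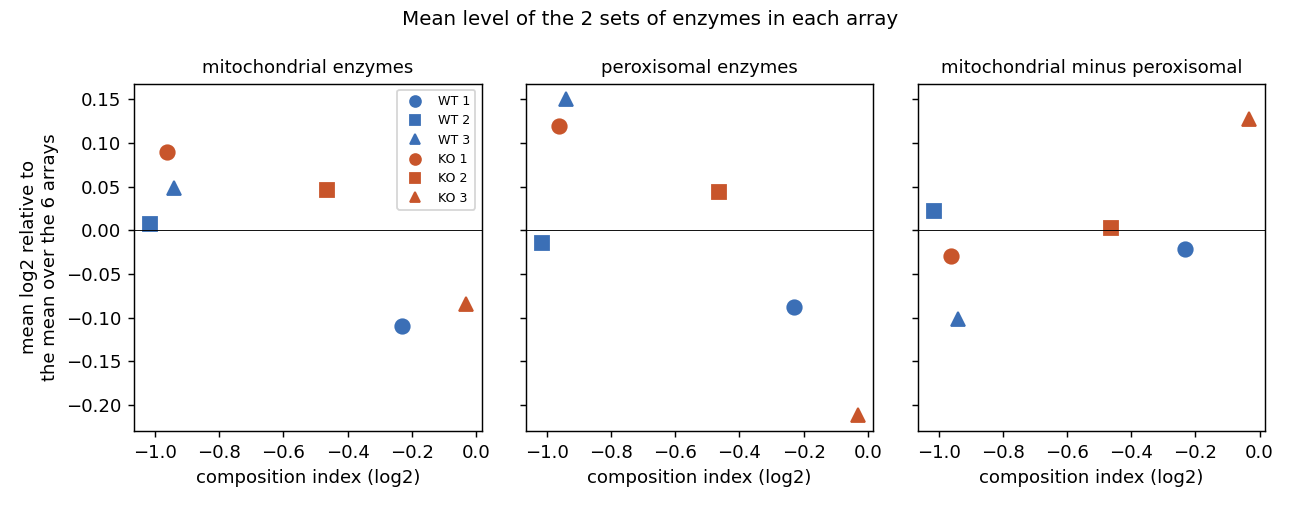
Mean log2 level of the 19 mitochondrial and the 7 peroxisomal genes relative to the mean over the 6 arrays, and the first minus the second (vertical axes), against the array's composition index in log2 (horizontal axis); each point is 1 array, blue for WT and orange for KO. WT 1 and KO 3, with the highest indices, are the lowest arrays in both sets of enzymes.

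As over all genes, more genes of the set separated along the composition index than along the labels. In 11 of the 31 genes WT 1, KO 2 and KO 3 lay all above or all below the other 3 arrays, where 25.0% of all genes did. Of the 25 bright genes of the set 10 did, against 37.9% of bright genes, a share near the background. The 8 that read lower in these arrays were Cpt1a, Cpt2, Acadl, Acads, Acad9, Hadha, Etfdh and the dim Acox3. The 3 that read higher were Acadvl, Echs1 and Decr1. Over all 18193 genes, 3182 read lower and 1372 higher in these arrays. With the index as a covariate, added after the data were seen, the differences were 0.37 (SE 0.09) for Acadm, 0.23 (SE 0.09) for Hadhb, 0.20 (SE 0.08) for Eci2, -0.18 (SE 0.14) for Hsd17b4 and -0.34 (SE 0.10) for Ppargc1b, and none passed.

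The other genes of the pathway came from 5 lists of fatty acid uptake, further beta-oxidation and peroxisomal genes, partners of PPARs and other PPAR targets, of which 103 of 115 genes were measured. In limma 0 of the 103 passed over all genes, and 12 had an unadjusted p under 0.05, 6 in each direction, against 4.58% of all genes. The KO arrays lay all above the WT arrays for 12 and all below for 7, against 5.89% and 3.81% of all genes, and the median difference was 0.02. By list the arrays separated for 4 of 22 further beta-oxidation genes, 3 of 18 uptake genes, 8 of 27 peroxisomal genes, 1 of 20 partners and 3 of 16 targets, where 9.70% of all genes and 11.6% of bright genes separated. Among the partners, Pparg, the PPAR of fat cells, differed by -0.16 (SE 0.19) and Rxra, the retinoid X receptor that pairs with PPARs, by 0.10 (SE 0.22). Angptl4, a secreted lipase inhibitor that PPARs induce, differed by -0.03 (SE 0.19).

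Of the bright genes in these lists whose arrays separated, the 4 with the smallest p were Eci1 and 3 genes of fat uptake, and none passed over all genes. Eci1, the mitochondrial counterpart of Eci2, read 10.18, 10.18 and 10.04 in WT 1 to 3 and 11.52, 11.85 and 12.48 in KO 1 to 3, a difference of 1.82 (SE 0.25; limma adjusted p = 0.5). Fabp4, a fatty acid binding protein of fat cells, vessels and macrophages, read 9.05, 9.24 and 9.34 in WT and 10.16, 10.17 and 10.31 in KO, a difference of 1.00 (SE 0.11; limma adjusted p = 0.343). On the mean of its 4 probe sets the difference was 0.502. Cd36, a membrane receptor that takes up fatty acids, read 12.56, 12.77 and 12.52 in WT and 13.27, 13.50 and 13.53 in KO. Its KO arrays lay well above the WT arrays, by 0.82 (SE 0.12; limma adjusted p = 0.5). Fabp5, the related binding protein of epithelia, went the other way, from 14.33, 14.02 and 14.34 in WT to 11.87, 13.25 and 12.98 in KO. Its difference was -1.53 (SE 0.37; limma adjusted p = 0.872). Fabp4 and Cd36 are also made by vessel cells. The 8 endothelial markers were all bright. All 8 read lower in KO on average, with a median difference of -0.68, while Fabp4 and Cd36 read higher. The KO arrays lay all below the WT arrays for 1 of the 8, Cldn5, where 11.6% of bright genes separated. For 6 of the 8, WT 1, KO 2 and KO 3 lay all below the other 3 arrays. That split follows the composition index, and 37.9% of bright genes showed it in either direction. The summed intensity of the endothelial markers was 7529 (WT 1) to 11988 in WT and 6601 to 7924 (KO 1) in KO. Of 8 markers of macrophages and myeloid cells 5 were bright. In KO 4 of the 8 read higher and 4 lower, with a median difference of -0.03. Their summed intensity was 12735 to 28310 in WT and 6803 to 33764 in KO. The part of either list in the differences of Fabp4 and Cd36 was not tested. For Fabp5, the markers of lung epithelium read lower in KO for 6 of 7, with a median difference of -0.42 and a summed intensity of 112043 to 155075 in WT and 56968.5 to 121101 in KO. KO 1 was the lowest array in that sum and in Fabp5. Sftpc, a part of that sum, read 12.71 in KO 1 and 15.37 to 15.79 in the other arrays. Epcam, the marker that read higher in KO (0.41, SE 0.40), was highest in KO 1 at 11.36. The part of these markers in the difference of Fabp5 was not tested. Differences of like size also stood in genes whose arrays overlapped, such as Vnn1, a PPAR target that releases pantothenate (-1.01, SE 0.50), and Slc27a3, a fatty acid transport protein (-0.83, SE 0.51).

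The next 6 bright genes by p whose arrays separated are given here, and 9 further genes separated with a larger p or at a dim level. Pex7, the import receptor for a group of peroxisomal enzymes, differed by 0.29 (SE 0.08) and Pex6, which recycles import receptors, by 0.35 (SE 0.13). Pex6 turned to -0.151 where probe sets with no cross-hybridisation suffix (s or x) were preferred and to -0.093 on the mean of its 5 probe sets. Acot1, a thioesterase induced by PPARs, differed by 0.33 (SE 0.11) and Acot9, another thioesterase, by -0.34 (SE 0.13). Mgll, which frees fatty acids from monoglycerides, differed by -0.62 (SE 0.19), and Lpin1, an enzyme of fat synthesis that also acts as a coactivator, by -0.57 (SE 0.23). The adjusted p of these 6 genes in limma was 0.964. Among the 9 others, Pex26, which anchors Pex6 to peroxisomes, differed by -0.56 (SE 0.24). Pex11a, which helps peroxisomes divide, differed by 0.42 (SE 0.21), and Hilpda, a lipid droplet protein, by -0.41 (SE 0.19).

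**Figure D4:**
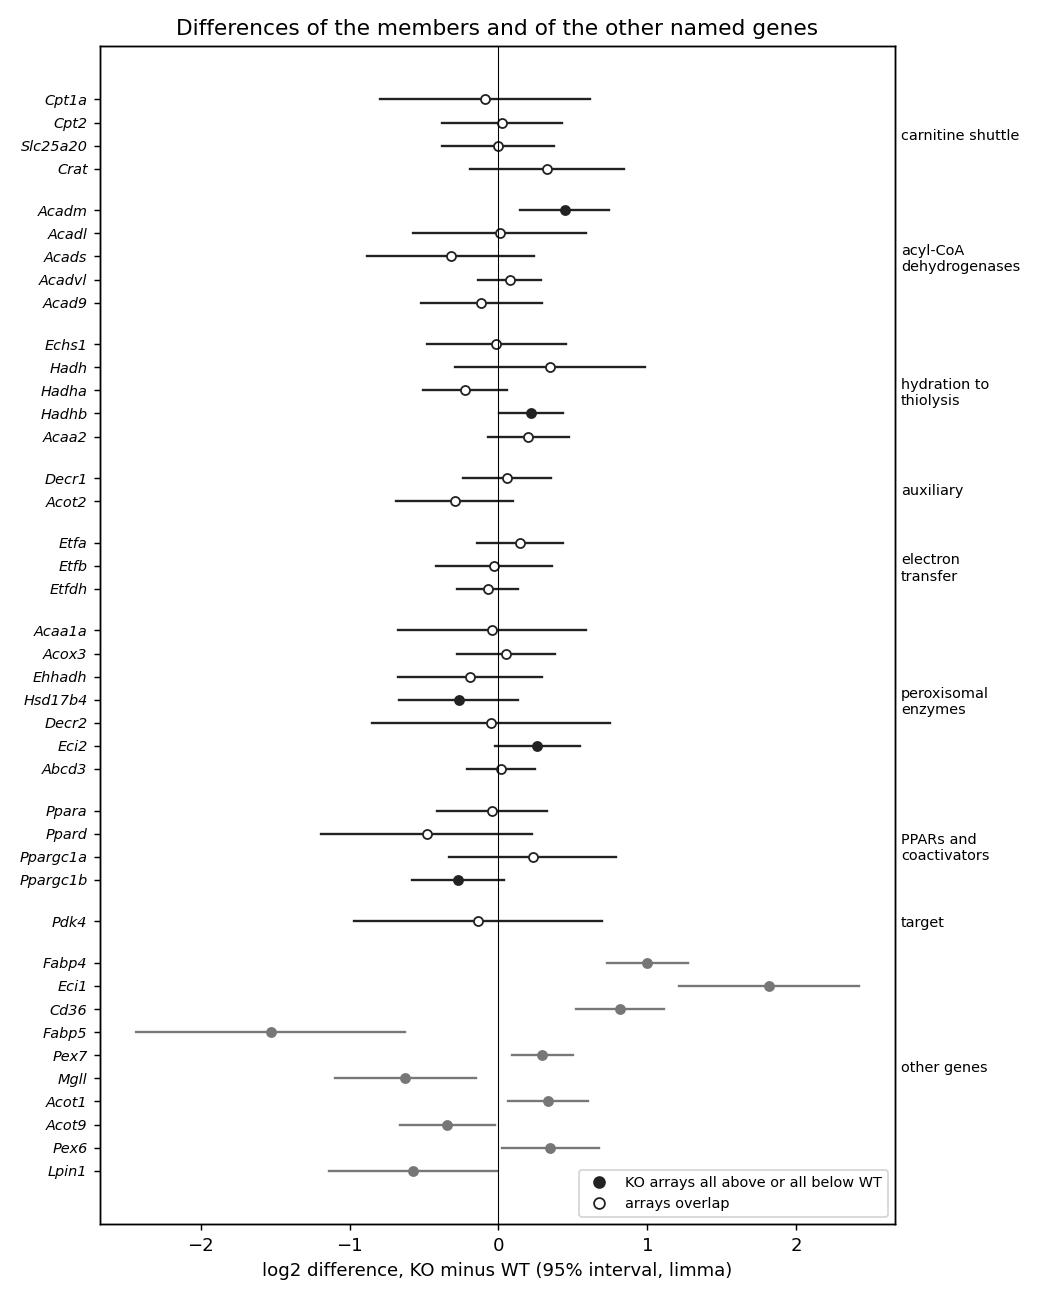
Difference between the KO and WT means of each gene in log2, with its 95% interval from limma, for the 31 measured genes by role (black) and the 10 bright genes of the other lists with separated arrays and the smallest p (grey); filled points mark genes whose KO arrays lie all above or all below the WT arrays. The 31 genes lie between -0.48 and 0.44, and Eci1, Fabp4, Cd36, Fabp5, Mgll and Lpin1 lie outside that range.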

How the data were processed

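Values are the deposited linear intensities of 45101 probe sets on 6 Affymetrix Mouse430_2 arrays. Per the submitters' processing notes, GCRMA and MAS5 are the tools, with no version, role or order given, so how the authors made the intensities is not given in the sources used here. Array medians lay between 20.6 and 24.1, and no further scaling was applied. A pseudocount of 16 was added before log2, which understates differences of dim genes. Probe sets were named from the platform's annotation and current gene IDs of GRCm38.p6: 34945 name 1 gene. Each of 18193 genes was read from its probe set with the highest mean. Bright genes have a group mean above 6.88 log2, the median gene. Groups were compared with limma 3.58.1 in R 4.3.3 (lmFit, eBayes with trend, two-sided, Benjamini-Hochberg over all genes, threshold 0.05). No filter was applied. SE and 95% intervals come from that fit. The steps were tested on simulated data.

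The genes, lists and tests were chosen with earlier results of these data known, so lists are described by counts and medians. By rule, values in every array are given for the PPARs, coactivators and Pdk4, for enzymes whose arrays separate the labels and for the brightest enzyme of each role, and of the other lists for up to 10 bright genes with separated arrays and the smallest p. Array values of Cpt1a, Hadha and Acaa2 were added after the values were seen. So were the differences of Pparg, Rxra, Angptl4, Vnn1, Slc27a3, Pex26, Pex11a and Hilpda. The shared numbers did not pair the arrays: deviations from the group means correlated between same-numbered arrays at -0.613, 0.0971 and -0.311.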

Additional observations from a re-analysis of the deposited data

How the results depend on the processing

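Over 22 alternatives (array centring, quantile normalisation, pseudocounts of 1 and 64, a filter on dim genes, other probe sets, variance models, each array left out, blocks, and 3 on the composition index chosen after the data were seen, besides leaving out Crat and Eci2, also chosen then), the number of beta-oxidation and PPAR genes that passed was 0 except for 1, Hadh, when KO 2 and KO 3 were set against WT 1. The signs of Acadm, Hadhb, Eci2, Hsd17b4 and Ppargc1b held in every alternative that could be fitted for them (Ppargc1b is removed by the filter). Signs were compared only where a difference exceeded its SE. They turned for Hadh (-0.097) and Etfa (-0.010) with station as a block and within station 2, for Ppargc1a (-0.186) for KO 2 and KO 3 against WT 1, and for Pex6 (-0.093 on the mean of all probe sets, -0.151 with probe sets lacking an s or x suffix preferred). The cause was not tested. The median over mitochondrial enzymes ran from -0.024 to 0.104 with 1 array left out. Over all genes 1 passed, and 17 passed after centring, Eci1 among them (1.858, adjusted p = 0.0286). The number was 0 after quantile normalisation, without the trend, with the replicate block and with the composition index, 32 with station as a block, 10 within station 2, 65 for KO 1 against WT 2 and WT 3, and 824 for KO 2 and KO 3 against WT 1. That last fit also called Eci1, Fabp4, Cd36 and Fabp5. In each of the 4 fits with 32, 10, 65 and 824 calls, 1 array alone stands for a label and is assumed to vary like the others. With 1 array left out the number was 0 to 1. The replicate block left each difference as it was, with a median of -0.015 over the 31 genes. Background correction could not be varied, since no scanner values were used here. A probe set near the floor limits what can be read of Acox3, and dim levels limit what can be read of Ehhadh, Decr2, Ppara, Ppard and Ppargc1b. The same holds for Acaa1a, which lies at the cutoff for bright genes and is removed by the filter.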
